A study of Mus musculus with 8 samples.

Results

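The heavy chain genes of the major histocompatibility complex (MHC) class I were followed across 4 groups of mouse peritoneal macrophages. They were chosen by name, and all 9 of the chosen names were among the 11996 rows of the deposited expression table: the classical genes H2-K1 and H2-D1, the Q region genes H2-Q4, H2-Q6 and H2-Q7, the T region genes H2-T10, H2-T22 and H2-T23, and the M region gene H2-M3. The macrophages had been drawn into the peritoneum of C57BL/6 mice with thioglycolate and had adhered to plastic for 24 h. The groups were wild type under mock treatment, wild type with IL-10 at 100 ng/ml for 4 h, Ptpn1-/- (the knockout) under mock treatment, and Ptpn1-/- with the same IL-10 treatment. The labels list 2 samples in each group, 8 in all, and do not say whether these came from separate mice. The table gives 1 value per gene and group, the authors' group signal, so differences carry no error and no p-value. The depth of the libraries is unknown. Where a genotype has 2 values, they are given in the order mock, IL-10. A difference here is a log2 ratio of 2 group signals after adding 26.7 units to each, and limits of 1.5-fold and 2-fold describe its size.

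MHC class I molecules are pairs of a heavy chain and beta-2 microglobulin that carry peptides, made largely by the proteasome, to the cell surface. The classical heavy chains show peptides to CD8 T cells, whereas the nonclassical chains of the Q, T and M regions have narrower roles, several of them as ligands of natural killer cells or gamma delta T cells. Interferons raise class I transcription through IRF1 and the coactivator NLRC5, among others. IL-10 acts on macrophages through JAK1, TYK2 and STAT3, and PTP1B, the product of Ptpn1, dephosphorylates JAK kinases. The comparisons ask how far class I transcripts differed between the genotypes and with IL-10.

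All members lie on mouse chromosome 17. In the table's mm9 coordinates H2-K1 (ENSMUSG00000061232) was placed at chr17:34133294-34134102 on the minus strand, H2-D1 (ENSMUSG00000073411) at chr17:35402966-35403834 on the plus strand, H2-Q4 (ENSMUSG00000035929) at chr17:35516562-35521619 plus, H2-Q6 (ENSMUSG00000073409) at chr17:35561822-35565306 plus and H2-Q7 (ENSMUSG00000060550) at chr17:35576152-35580714 plus. H2-T23 (ENSMUSG00000067212) stood at chr17:36166718-36169486 minus, H2-T22 (ENSMUSG00000056116) at chr17:36175354-36179445 minus, H2-T10 (ENSMUSG00000079491) at chr17:36254035-36258410 minus and H2-M3 (ENSMUSG00000016206) at chr17:37407165-37411429 plus. The rows of H2-K1 and H2-D1 span 809 and 869 bases, whereas GENCODE M21, an annotation of a later build, gives these genes 4331 and 4770 bases. Whether the signals of both genes count only that part was not tested. GENCODE M21 types 8 of the members as protein-coding and H2-T10 as a polymorphic pseudogene.

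Promoter windows are printed for H2-K1 and H2-D1, which had the highest levels, and for H2-Q6 and H2-Q7, which had the widest genotype differences. H2-M3, which keeps only a part of the layout shared by these, and H2-T23, with the narrowest genotype difference, follow. The window of H2-Q4, which has the layout too, is not printed. Whether the layout bears on levels or genotype differences was not tested. Each window runs 5′ to 3′ from 250 bases before to 50 after the annotated start, as given by RefSeq on GRCm38.p6, which lists windows for 8 of the 9 members (not H2-T10). They are chr17:34000298-34000597 (minus strand) for H2-K1, the first of its 2 listed windows, chr17:35262844-35263143 (plus) for H2-D1, chr17:35424600-35424899 (plus) for H2-Q6, chr17:35438905-35439204 (plus) for H2-Q7, chr17:37269984-37270283 (plus) for H2-M3 and chr17:36032652-36032951 (minus) for H2-T23. Capitals mark every match, on either strand, to the kappaB decamer (the capitals that begin with GGGA), the interferon-stimulated response element, a gamma-activated site (TTCNNNGAA), the core of a cyclic AMP response element (TGACG), a Y box (CCAAT), or TTTCACTTC, which was chosen and shortened after the windows had been read.
H2-K1: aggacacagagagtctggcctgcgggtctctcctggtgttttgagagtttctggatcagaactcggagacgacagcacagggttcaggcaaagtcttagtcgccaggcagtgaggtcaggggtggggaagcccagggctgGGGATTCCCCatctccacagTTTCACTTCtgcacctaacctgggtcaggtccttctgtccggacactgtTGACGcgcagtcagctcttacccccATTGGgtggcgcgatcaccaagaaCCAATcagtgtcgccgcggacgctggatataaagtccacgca
H2-D1: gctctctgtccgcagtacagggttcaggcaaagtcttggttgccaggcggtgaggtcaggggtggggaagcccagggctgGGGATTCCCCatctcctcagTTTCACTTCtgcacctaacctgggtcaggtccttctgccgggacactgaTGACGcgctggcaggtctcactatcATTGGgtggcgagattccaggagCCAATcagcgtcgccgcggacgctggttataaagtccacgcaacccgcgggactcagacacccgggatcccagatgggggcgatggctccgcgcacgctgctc
H2-Q6: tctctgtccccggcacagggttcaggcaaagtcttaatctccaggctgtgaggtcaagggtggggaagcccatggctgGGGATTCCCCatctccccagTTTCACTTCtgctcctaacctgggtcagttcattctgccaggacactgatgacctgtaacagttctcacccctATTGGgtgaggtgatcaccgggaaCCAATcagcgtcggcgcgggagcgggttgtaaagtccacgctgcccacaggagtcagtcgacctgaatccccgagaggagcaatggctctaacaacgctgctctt
H2-Q7: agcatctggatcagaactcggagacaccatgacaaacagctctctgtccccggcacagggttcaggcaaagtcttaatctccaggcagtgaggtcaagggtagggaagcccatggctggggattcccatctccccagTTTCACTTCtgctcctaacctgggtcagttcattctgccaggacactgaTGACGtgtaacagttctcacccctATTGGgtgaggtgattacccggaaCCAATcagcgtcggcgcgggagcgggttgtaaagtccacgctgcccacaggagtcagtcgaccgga
H2-M3: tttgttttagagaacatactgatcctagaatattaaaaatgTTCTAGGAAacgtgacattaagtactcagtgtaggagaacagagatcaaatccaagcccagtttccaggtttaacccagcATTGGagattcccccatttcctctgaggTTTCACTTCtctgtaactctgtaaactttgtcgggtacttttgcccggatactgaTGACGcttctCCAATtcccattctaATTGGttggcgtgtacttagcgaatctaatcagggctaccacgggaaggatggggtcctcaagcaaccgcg
H2-T23: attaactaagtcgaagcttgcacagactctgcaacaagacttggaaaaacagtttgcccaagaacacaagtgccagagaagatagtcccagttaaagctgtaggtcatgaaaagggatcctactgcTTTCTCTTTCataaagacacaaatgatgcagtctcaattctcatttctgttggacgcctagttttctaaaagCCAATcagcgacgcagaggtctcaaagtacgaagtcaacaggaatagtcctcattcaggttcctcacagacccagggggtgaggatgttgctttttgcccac

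The kappaB decamer occurred in 4 of the 8 members with a window (H2-K1, H2-D1, H2-Q4 and H2-Q6) and in 0.444% of the 32851 windows of the same length in the RefSeq table. From its first base to that of the nearest downstream ATTGG, the Y box read on the other strand, were 94 bases in H2-K1, H2-D1 and H2-Q4 and 93 in H2-Q6. The next CCAAT began 23 bases after that ATTGG in H2-D1 and 24 bases after it in H2-K1, H2-Q4, H2-Q6 and H2-Q7, so the spacing was held while the annotated starts differed. In H2-Q7 the matching stretch read gggattccc, 9 bases against 10 in H2-Q6, which has a further C, and was therefore no match. TTTCACTTC was found in 6 of 8 members (all but H2-T22 and H2-T23) and in 0.505% of all windows. H2-T22 and H2-T23 each held a match to the interferon-stimulated response element, which 3.44% of all windows hold. The Y box was in 8 of 8 members against 37.4% of windows, TGACG in 6 of 8 against 20.8%, and the gamma-activated site in H2-M3 alone of the 8, against 8.30%. These are letters found in a window and not measured sites, and the windows of near-identical genes are not independent of each other.

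Class I genes also share transcript sequence, which bears on how separately each row can be read. Every stretch of 36 bases in a member's longest GENCODE M21 transcript was looked up in the transcripts of all other genes. H2-T22 and H2-T10 shared 67.4% and 59.9% of their stretches with other genes, in large part with each other. H2-Q4, H2-Q6 and H2-Q7 shared 48.1%, 46.0% and 35.4%, H2-T23 24.1%, H2-D1 23.3%, H2-K1 17.2% and H2-M3 3.14%. With stretches of 75 bases the shares were 46.3% in H2-T22, 18.1 to 21.3% in the Q genes, and 0 in H2-M3. At this length H2-T22 shared more with A930015D03Rik (31.1%) than with H2-T10 (16.3%). Likewise, H2-T10 shared more with BC023719 (25.9%) than with H2-T22 (14.3%). The sources used here do not give the read length or how shared reads were divided, so the rows of the Q genes, and those of H2-T10 and H2-T22, are uncertain one by one and are also given as sums. The sum of H2-T10 and H2-T22 leaves out A930015D03Rik and BC023719, so it does not settle how their shared reads were divided.

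**Figure D1:**
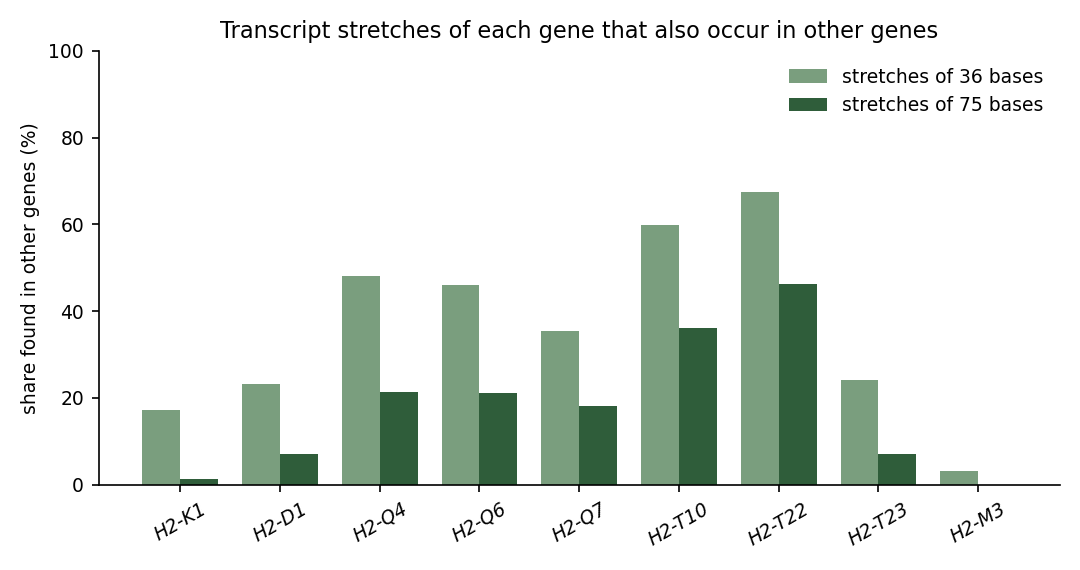
Bars give, for each class I gene, the percentage of stretches of 36 or 75 bases in its longest annotated transcript that also occur in a transcript of another gene. H2-T22 stands highest at 67.4% and 46.3%, and H2-M3 lowest at 3.14% and 0.

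Of facts that concern the whole table, Ptpn1 had 4960.5 and 6736 units in the wild-type columns and 3836.5 and 5391.5 in the knockout columns. Its signal was present in the knockout, and the deleted part of the gene is not stated in the labels. All 8 macrophage markers were listed, from Fcgr1 (1453 units in wild type under mock treatment) to Lyz2 (362618). Lyz2 was lower in knockout cells, with 136852 units in both columns against 362618 and 272813, and Fcgr1 was higher (log2 ratios of 0.79 and 0.61), while the other 6 lay within 1.5-fold. The summed signal of the 8 was 645696 and 553540 units in wild-type cells against 460680 and 460756 in knockout cells. None of the 5 NK cell markers was listed by name. Of the 8 T cell markers looked up, Cd3e, Cd3d, Cd3g, Cd4 and Cd8a were not listed by name either, whereas Il7r, Lck and Cd5 were. Il7r had 32926 and 34645.5 units in wild-type cells and 37024 and 44686.5 in knockout cells. Lck was higher with IL-10, at 11.5 and 105 units in wild-type cells and 10 and 128 in knockout cells. Cd5 had at most 31 units in any group. All columns sum to the same total of 26705598 units, and 11400 rows passed a filter on low values (a mean of at least 26.7 units), with all 9 members among them.

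Class I heavy chain signal was dominated by the classical genes. H2-D1 had 41018 units in both wild-type columns, and 46913 and 50734 in the knockout columns. H2-K1 had 16560 and 18064 units in the wild-type columns, and 22436 and 25040 in the knockout columns. For both genes the lower knockout value lay above the higher wild-type value. How many of all rows that passed the filter separate in this way was not counted. H2-D1 took 56.5 to 60.2% of the summed signal of the 9 members and H2-K1 24.3 to 27.9%, shares that are not corrected for length.

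**Figure D2:**
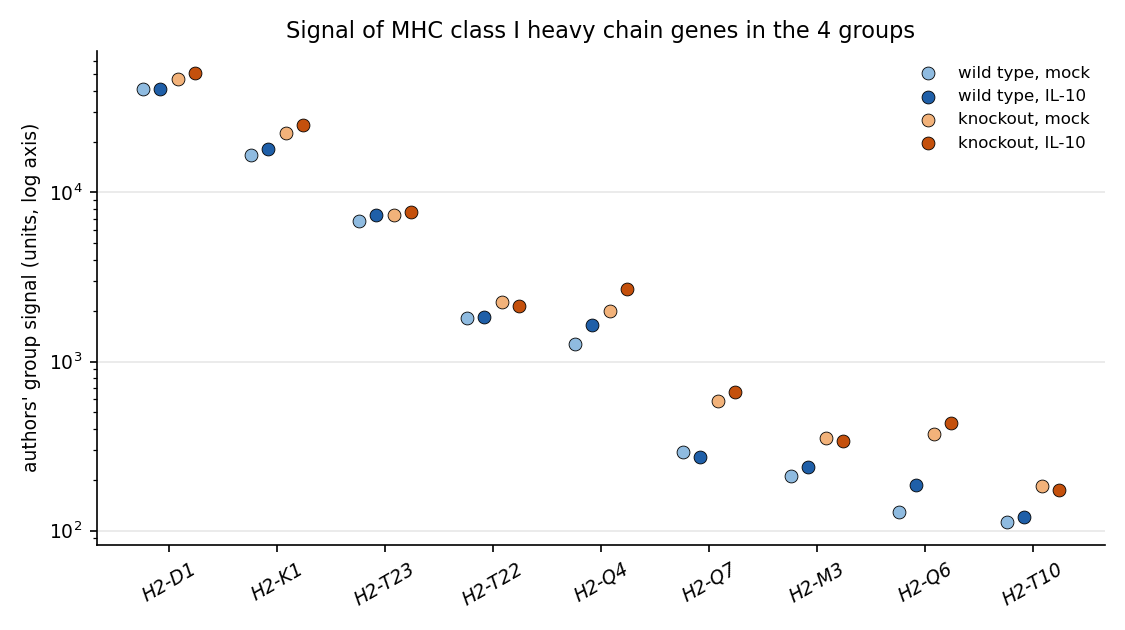
Points give the authors' group signal (log axis) of each class I gene in wild type and knockout, under mock treatment and with IL-10, ordered by the wild-type mock value. H2-D1 lies between 41018 and 50734 units, and the knockout points of H2-Q6 (372 and 430.5) lie well above those of wild type (128.5 and 185).

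The T region gene H2-T23 encodes Qa-1, which presents leader peptides of other class I chains to the CD94-NKG2A receptor. Wild-type cells had 6738 and 7399 units of it, and knockout cells 7339 and 7649. The knockout mock value lay between the wild-type mock and IL-10 values, while within each treatment the knockout value was slightly higher. A subset of gamma delta T cells recognises the chains of H2-T22 and of H2-T10, the latter typed above as a polymorphic pseudogene. Whether the H2-T10 transcripts here encode a chain was not tested. The wild-type columns listed H2-T22 at 1802 and 1825 units and the knockout columns at 2245.5 and 2127. H2-T10 was far lower, with 112 and 121 units against 183 and 173.5. In both, each knockout value lay above each wild-type value, a separation whose share over all rows was not counted.

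The Q region holds the genes of Qa-2, a class I molecule anchored by a lipid, beside other class I genes. Of the 3 Q region members, whether or not they encode Qa-2, H2-Q4 was the most abundant. It had 1263.5 and 1637 units in wild-type cells against 1980.5 and 2685.5 in knockout cells. Wild-type cells had 291 and 274 units of H2-Q7, and knockout cells 588 and 662. H2-Q6 was listed at 128.5 and 185 units in the wild-type columns and at 372 and 430.5 in the knockout columns. Its lower knockout value was thus above its higher wild-type value. The values of each genotype are those of mock and IL-10 treatment, so their range is no spread between replicates. H2-M3, which presents peptides that begin with formyl-methionine, as bacterial proteins do, had 211.5 and 239 units in wild-type cells against 353 and 340 in knockout cells. The wild-type and knockout values of all 3 Q genes and of H2-M3 did not overlap. The share of all rows that separate so was not counted, so this is not shown to be particular to these genes.

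Per kilobase of the longest annotated transcript, the order of levels in wild type under mock treatment was H2-D1 (19514 units per kb), H2-K1 (8837), H2-T23 (2550), H2-T22 (589), H2-Q4 (487), H2-M3 (147), H2-Q7 (69.1), H2-Q6 (61.6) and H2-T10 (33.0). The first 3 places were the same in all 4 groups. H2-Q4 and H2-T22 exchanged places in wild type with IL-10 and in both knockout groups, as H2-Q6 and H2-Q7 did. Undivided by length, H2-Q7 stood above H2-Q6 in all 4 groups and H2-T22 above H2-Q4 in all but the knockout with IL-10. With no spread between libraries, no neighbours in this order can be said to differ. The table does not state whether its signal was already divided by length.

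Under mock treatment every class I heavy chain gene was listed higher in the knockout, with log2 ratios from 0.12 to 1.36 and a median of 0.60. Over all 11400 kept rows, 53.5% were above 0 and the median was 0.02. H2-Q6 had the largest ratio (1.36), followed by H2-Q7 (0.95), H2-M3 (0.67), H2-Q4 (0.64) and H2-T10 (0.60). H2-K1 (0.44), H2-T22 (0.31), H2-D1 (0.19) and H2-T23 (0.12) lay below 1.5-fold. Thus 5 of 9 were at least 1.5-fold higher, a limit that 1.43% of all kept rows passed, and 1 of 9 was at least 2-fold higher, against 0.325%. H2-Q6 stood among the top 0.132% of kept rows by this ratio and H2-T23 among the top 30.4%. The members past the 1.5-fold limit were thus all nonclassical, and H2-Q4 (1263.5 units in wild type under mock) had the highest signal of them. The classical pair, which carries most of the signal, had smaller ratios. Summed over the 9 members the signal was 68124.5 units in wild-type cells against 82410 in knockout cells, a ratio of 1.21.

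**Figure D3:**
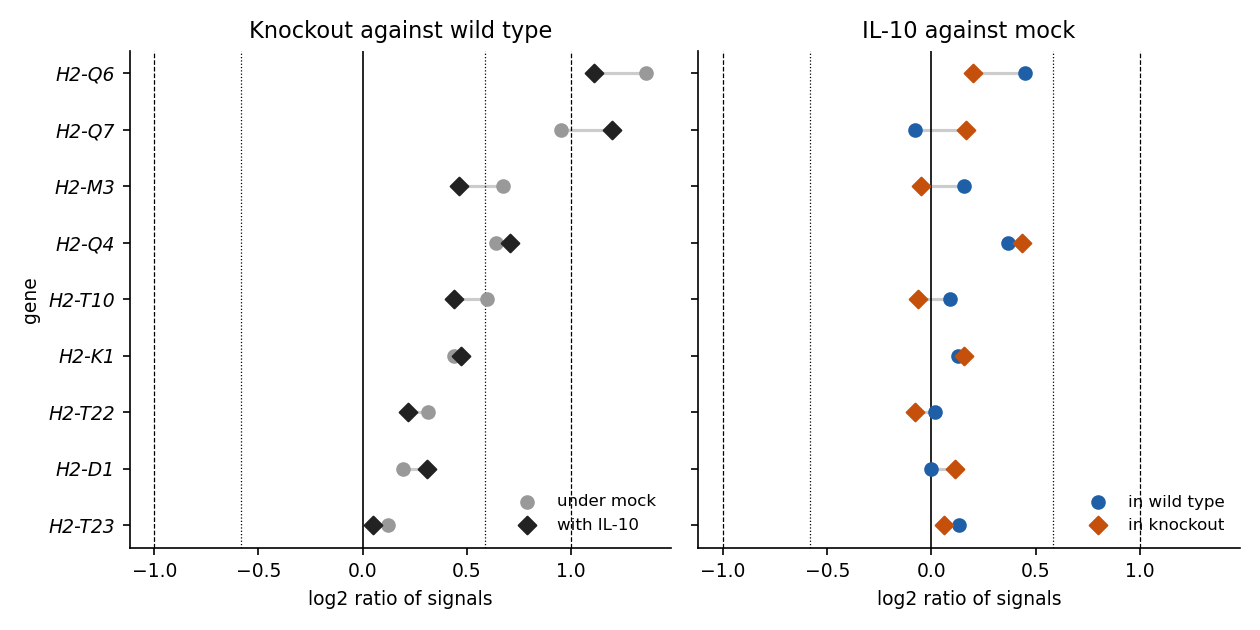
Points give log2 ratios of signal for each class I gene, knockout against wild type on the left (under mock and with IL-10) and IL-10 against mock on the right (in wild type and knockout), with dotted and dashed lines at 1.5-fold and 2-fold. The left panel lies wholly above 0, from 0.05 to 1.36, whereas the right panel spans -0.08 to 0.45.

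Because Q genes share sequence, their rows were also summed. H2-Q6 and H2-Q7 together had 419.5 units in wild-type against 960.0 in knockout cells under mock treatment, 2.21-fold after the pseudocount, and 459 against 1092.5 with IL-10, 2.30-fold. With H2-Q4 added the ratios were 1.74-fold and 1.79-fold. H2-T10 and H2-T22 summed were 1914 and 2428.5 units under mock, 1.27-fold, and 1946 and 2300.5 with IL-10, 1.18-fold. The summed Q rows were thus also higher in the knockout than in wild type under both treatments. The listed Q rows outside the members had lower signals: under mock treatment H2-Q5 had 87.5 units in wild-type against 128 in knockout cells and H2-Q10 69.5 against 99. Summing all 5 Q rows gave 1840 and 3167.5 units, 1.71-fold. No row was listed under the names H2-Q8 or H2-Q9.

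Transcript length moved with the genotype difference over the whole table. The Spearman coefficient of the mock log2 ratio with transcript length across 11222 rows was -0.53, and the members' longest transcripts (1438 to 4209 bases, median 2596) were shorter than the median row (3461). Genes are not independent replicates, and the coefficient is a description of these columns. With a running trend over length subtracted, the members' median was 0.51 in place of 0.60, and 9 of 9 stayed above 0. Those at least 1.5-fold higher were then 2 of 9, H2-Q6 (1.25) and H2-Q7 (0.98), against 1.10% of the 11222 rows, since H2-T10 (0.57), H2-Q4 (0.56) and H2-M3 (0.51) moved just below the limit. H2-D1 and H2-T23 were then 0.08 and 0.04.

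**Figure D4:**
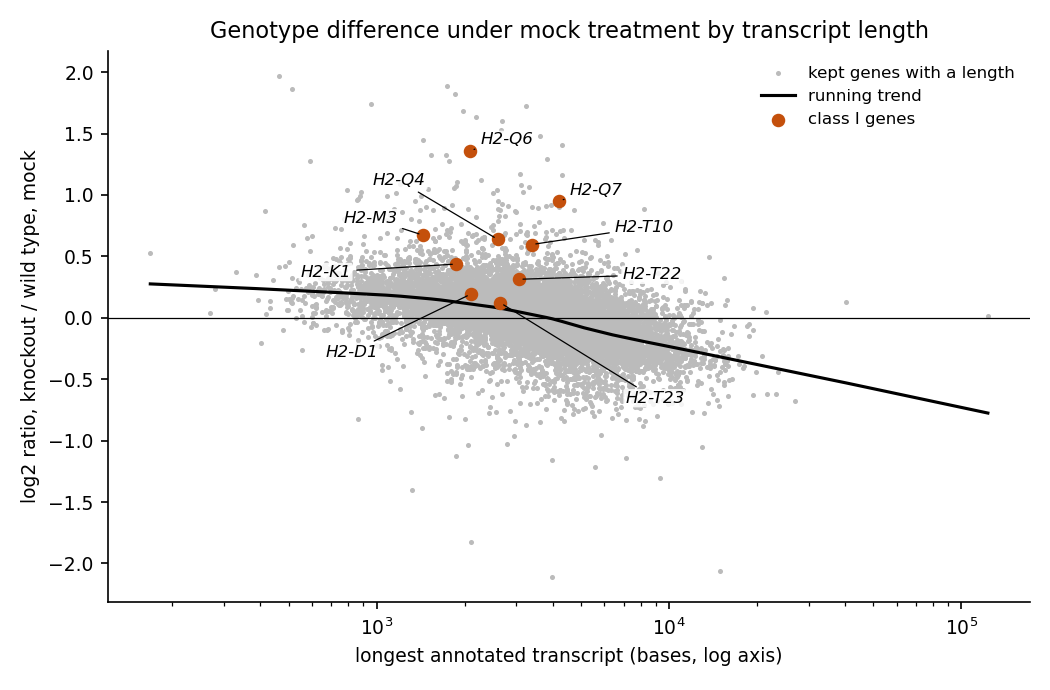
Grey points are the kept genes with a length, plotted by longest annotated transcript (log axis) and log2 ratio of knockout against wild type under mock treatment, the black line is the running trend, and orange points are the class I genes. H2-Q6 (1.36) and H2-Q7 (0.95) stand far above the line, and H2-D1 (0.19) and H2-T23 (0.12) close to it.

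The 2 most abundant members lie where the table's values are sparse, so that a small move in rank can shift the signal. H2-D1 ranked 58 and 57 of 11996 in the wild-type columns and 53 and 49 in the knockout columns. Its knockout value with IL-10 (50734) stood above a next lower value of 44686.5, a step of 0.18 on the log2 scale, whereas its other steps to the next lower value were below 0.01. H2-K1 moved further, from ranks 192 and 164 in wild type to 121 and 104 in the knockout. The genotype difference of H2-K1 thus spanned 71 and 60 places and that of H2-D1 5 and 8. Exact ties between the columns of a genotype recurred among abundant rows. Cd68 had 226524 units in both wild-type columns and 272612 in both knockout columns, and B2m 60393 in both knockout columns. The equal wild-type signals of H2-D1 (41018) are therefore not shown to be a measured equality. Whether such ties come from the normalization was not tested.

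With IL-10 the genotype difference was seen again in all 9 members, with log2 ratios from 0.05 (H2-T23) to 1.20 (H2-Q7) and a median of 0.46, against 0.01 over all kept rows, of which 51.8% were above 0. H2-Q7 (1.20) and H2-Q6 (1.11) passed the 2-fold limit, as did 0.596% of kept rows, and with H2-Q4 (0.71) 3 of 9 were at least 1.5-fold higher, against 1.80%. H2-K1 (0.47), H2-M3 (0.46), H2-T10 (0.44), H2-D1 (0.31) and H2-T22 (0.22) lay below that limit. Under both treatments H2-Q6 and H2-Q7 stood highest and H2-T23 last, and H2-Q4, which was below H2-M3 under mock, came next here. With the length trend subtracted H2-T23 was at 0.01. The columns of both treatments are separate, but whether they share mice is not stated in the labels. Summed over the members the signal was 70762 units in wild-type cells against 89841.5 in knockout cells, a ratio of 1.27.

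The members' IL-10 ratios had lower medians than their genotype ratios. H2-T23 was an exception, with IL-10 ratios of 0.13 (wild type) and 0.06 (Ptpn1-/-) beside genotype ratios of 0.12 and 0.05. In wild type 7 of 9 members were above 0, as were 49.6% of kept rows, H2-D1 was at 0.00 and H2-Q7 at -0.08, with a median of 0.13. None was 1.5-fold higher, which 1.54% of kept rows did. The largest ratios were those of H2-Q6 (0.45) and H2-Q4 (0.37). In the knockout 6 of 9 were above 0, against 45.2% of kept rows, with a median of 0.11 and a range of -0.08 (H2-T22) to 0.43 (H2-Q4). None was 1.5-fold higher here either, against 2.32% of kept rows. H2-Q4 was the member with a ratio above 0.3 in both genotypes. H2-K1 was slightly higher in both (0.13 and 0.16), whereas H2-T10, H2-T22 and H2-M3 were above 0 in wild type and below 0 in the knockout. These ratios share their mock and IL-10 columns with the genotype comparisons and are no separate evidence of them.

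The IL-10 log2 ratio of the knockout minus that of wild type ranged over the members from -0.25 (H2-Q6) to 0.24 (H2-Q7), with a median of -0.08, 4 above 0 and 5 below. Over all kept rows 48.7% were above 0. None passed 1.5-fold, which 0.50% of kept rows did upward. H2-Q6 and H2-Q7, which share transcript sequence, lay at opposite ends, and their sum gave 0.06. For H2-K1 the difference was 0.03, for H2-D1 0.11 and for H2-Q4 0.07. The genotype difference in class I heavy chains was thus of similar size without and with IL-10 in these columns.

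The partners of the heavy chains, B2m and the genes of assembly and peptide supply, gave smaller genotype ratios than the heavy chains at the median. B2m itself differed little. By the summed signal of the 9 heavy chain genes, to which H2-D1 gave most, the log2 ratios were only 0.27 under mock and 0.34 with IL-10. These lie closer to those of the partners. B2m, the light chain, had 52687 units in wild-type against 60393 in knockout cells under mock, a log2 ratio of 0.20, and 56540 against 60393 with IL-10, a ratio of 0.10. With the length trend subtracted these ratios of B2m, a short transcript, were 0.00 and -0.03. Of the 14 genes of assembly and peptide supply, none was at least 1.5-fold higher under mock, with a median of 0.24, and 2 were with IL-10, with a median of 0.31. With the length trend subtracted the medians fell to 0.05 and 0.21. The chaperones Calr (-0.03 and -0.18) and Canx (-0.09 and -0.06) were not higher in the knockout, and Pdia3 was at 0.00 and -0.02. Under mock the largest ratios were those of the immunoproteasome subunits Psmb9 (383 and 580.5 units, 0.57) and Psmb8 (1571 and 2051, 0.38) and the peptide transporter subunit Tap1 (946.5 and 1257.5, 0.40). With IL-10 Tap1 stood at 1051 and 1874 units (0.82) and Psmb9 at 404 and 646 (0.64), followed by Tapbpl (0.50), which edits peptides. The difference between the IL-10 ratios was 0.42 for Tap1, larger than that of any heavy chain gene, a difference that was not tested.

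Among 13 transcription factors of class I genes the mock genotype ratios had a median of -0.01, with none past 1.5-fold. Irf1 (0.36) and Nlrc5 (0.19) were listed higher in the knockout. With IL-10 the median was 0.14. Nlrc5, the class I coactivator, had 389 and 784 units in wild-type cells and 446 and 1187.5 in knockout cells, IL-10 log2 ratios of 0.96 and 1.36, whereas the heavy chain genes reached at most 0.45 and 0.43. Irf1 had IL-10 ratios of 0.44 and 0.65.

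Related genes outside the list gave a mixed picture. H2-K2, H2-Q5, H2-Q10 and H2-T24 passed the filter, and all 4 were lower with IL-10 in both genotypes. H2-K2 had 172.5 and 102.5 units in wild-type cells (-0.62) and 168.5 and 137 in knockout cells (-0.25). Under mock 2 of the 4 were above 0 by genotype and 2 below, with a median of 0.18 that turned to -0.03 with no filter and -0.06 with a filter of 5 ppm and was 0.04 with the length trend subtracted. With IL-10 the genotype median was 0.36, and 0.21 with a pseudocount of 4 ppm or 0.23 with that filter. The class I-like genes Cd1d1, Mr1, Hfe, Fcgrt and Procr, whose products bind lipids, vitamin metabolites, transferrin receptor, antibody or protein C, had a genotype median of 0.10 under mock, which turned to -0.02 with the length trend subtracted, and none past 1.5-fold. Procr had the largest ratio (0.42). Class II genes, which present peptides to CD4 T cells, had a genotype median of 0.53 under mock, with 3 of 8 at least 1.5-fold higher, close to the class I heavy chains. Lilrb3, the class I receptor PIR-B, had genotype ratios of -0.06 and -0.15. Lilrb4, placed on the same list of receptors although its mouse product is not established as one for class I, had 0.46 under mock and 1.75 with IL-10.

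**Figure D5:**
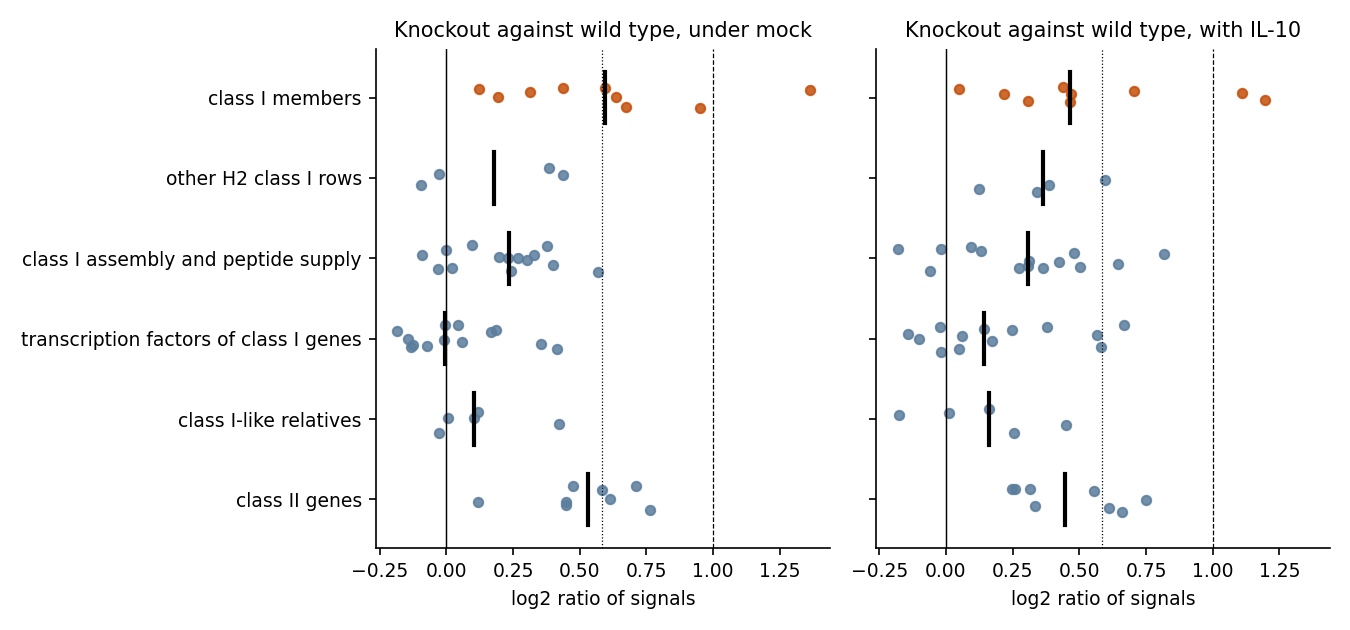
Each point is the log2 ratio of 1 kept gene, knockout against wild type, under mock treatment (left) and with IL-10 (right), black bars are list medians, and dotted and dashed lines mark 1.5-fold and 2-fold. The class I heavy chains have medians of 0.60 and 0.46, the class II genes 0.53 and 0.45, and the transcription factors -0.01 and 0.14.

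The genes most like the members over the 4 group values were found by the distance between log2 profiles centred on their mean, set against the members' median profile (-0.30, -0.16, 0.17 and 0.26 in wild type mock, wild type IL-10, knockout mock and knockout IL-10). Among rows of at least 134 units they were Ifi27l1 (distance 0.05), Rps4y2 (0.05), Sar1b (0.07), Cytip (0.07) and Rhou (0.07). H2-K1 itself lay at 0.05, H2-T10 at 0.13 and H2-M3 at 0.16, whereas H2-T23 and H2-Q4 lay at 0.37 each and H2-Q7 and H2-Q6 at 0.65 and 0.82. The members thus did not share 1 profile: the classical gene H2-K1 was near the median, and H2-Q6 and H2-Q7 lay farthest from it. With 4 points per gene, likeness of this degree is a description.

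Markers of other cells in the peritoneum moved with genotype as well. In the knockout 5 of 6 monocyte markers were at least 1.5-fold higher under mock and 5 with IL-10, with Ly6c2 at 15 and 13.5 units in wild-type cells against 100 and 105.5 in knockout cells. Their summed signal, mostly Fn1, was 72682 and 73134 units against 62340 and 58561.5. Of 8 mesothelial and fibroblast markers none was above 0 in either treatment, and their sum was 33662.5 and 32265 units in wild-type cells against 20317 and 20199 in knockout cells. The 6 mast cell markers summed to 330 and 360.5 units against 481 and 554. The 3 listed B cell markers summed to 110 to 149 units over the 4 groups. In bulk RNA, fewer cells of a type and less RNA per cell cannot be told apart, and the part of these markers in the class I differences was not tested.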

How the data were processed

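RNA sequencing of 8 samples in 4 groups was analysed. The submitters' processing notes name RSEM, Bowtie and mm9 without a version or role. The normalization was not stated. The authors deposited 1 normalized signal per gene and group. The values, multiples of 0.5, were not CPM, since each column sums to 26705598. No value per library was used, so the planned tests (limma-trend, replicate block, leaving out a library) were not run, and depth and its precision are unknown.

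From the signal, log2 ratios were computed in Python 3.11.15 (pandas 2.3.3, numpy 2.4.6) after adding 26.7 units (1 ppm of a column's sum) as a pseudocount, over 11400 rows with a mean of at least 1 ppm. Of 38 names on several rows, the highest row was used. Lengths came from GENCODE M21 (11797 rows matched by identifier), and the trend over length was a lowess curve (statsmodels 0.14.6, fraction 0.3). The calculations were tested on simulated data. Genes were matched to RefSeq promoter windows by symbol.

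The members and lists were chosen with earlier results of these data known. The rule named all members, B2m, Tap1, Nlrc5 and Irf1, and up to 3 genes per list with the largest ratios; an item it also took is not reported here. Other single genes, H2-K2, H2-Q5, H2-Q10, H2-T24 and cell type markers among them, were named after their values were seen. Alternatives were other pseudocounts and filters, the length trend, summed rows of 1 name and, added after seeing the data, summed near-identical members.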

Additional observations from a re-analysis of the deposited data

How the results depend on the processing

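The members' median kept its sign under each alternative that was run. For the knockout against wild type it ranged from 0.39 to 0.65 under mock treatment and from 0.37 to 0.50 with IL-10. The lowest mock value, 0.39, came from summing near-identical members to 6 units, an alternative added after seeing the data. With a pseudocount of 4 ppm the mock median was 0.44, the members at least 1.5-fold higher were 3 in place of 5 under mock, and those at least 2-fold higher were 1 in place of 2 with IL-10. A larger pseudocount lowers the ratios of low genes by construction. With the length trend subtracted, 2 members were at least 1.5-fold higher under mock in place of 5, while all rows past that limit were 124 in place of 163.

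Counts over all rows moved more. Rows at least 1.5-fold higher with a pseudocount of 4 ppm were 117 in place of 176 for IL-10 in wild type, 94 in place of 163 for genotype under mock, 127 in place of 205 for genotype with IL-10, and 29 in place of 57 for the difference of the IL-10 ratios. That difference gave 112 rows with a pseudocount of 0.25 ppm. With the filter at 5 ppm it gave 27 rows, and genotype with IL-10 gave 135. Rows at least 2-fold higher in the knockout under mock were 57 with 0.25 ppm and 18 with 4 ppm, in place of 37. Of 270 values of single members under alternatives, 14 moved by 0.1 or more and none changed sign past 1.5-fold. Undivided by length, 13 of the 36 places of members in the order of levels moved, over all 4 groups. The genotype median of class II genes with IL-10 was 0.34 with no filter and 0.58 with the filter at 5 ppm, in place of 0.45. Of the other genotype medians given, those that moved, and B2m, have the moved values beside them.

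No paired analysis was possible because the table has 1 column per group and no column per library. For the same reason no library was left out, and no depth limit is given.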
